A study of Mus musculus with 12 samples.

Results

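OFF cone bipolar cells were picked out of Drop-seq profiles of mouse retina, chosen by the measured UMIs of 11 genes in each cell. A cell was taken as a member if it had at least 200 detected genes, at least 3 of the 7 OFF bipolar markers Scgn, Vsx1, Grik1, Neto1, Lhx3, Cdh8 and Tacr3, and no transcript of the 4 ON bipolar genes Isl1, Trpm1, Grm6 and Igfn1. This gave 129 members among 24772 cells with at least 200 genes, or 0.521%. Drop-seq captures single cells with barcoded beads and counts the 3′ ends of their transcripts as unique molecular identifiers (UMIs). All pups were of the C57B6 strain and were taken on postnatal day 14 (P14) or day 17 (P17). For oxygen-induced retinopathy (OIR), a foster mother and her pups breathed 75% oxygen between day 7 and day 12, followed by room air, a model in which retinal vessels are first lost and later regrow abnormally. Normoxic control pups (NORM) stayed in room air with their own mother, so the foster mother cannot be told apart from the oxygen. Retinas were used whole or after removal of rods. The 12 libraries fall into 8 groups. NORM had 1 library for each combination of age and fraction. At P14, OIR had 3 whole-retina and 2 rod-depleted libraries, and at P17 it had 2 whole-retina libraries and 1 rod-depleted library. Whether libraries of a group are different animals is not in the labels. The p-values therefore weigh effects only against library-to-library spread, part of which may be technical.

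Bipolar cells carry the signal of photoreceptors to the inner retina. OFF cone bipolar cells respond when light dims: glutamate released by cones in darkness opens ionotropic AMPA and kainate receptors on their dendrites. ON bipolar cells, which include the rod bipolar cell, instead sense glutamate through the metabotropic receptor encoded by Grm6, whose G protein closes the Trpm1 channel. Several OFF types are known in the mouse, each with its own transcription factors and adhesion molecules, and all release glutamate from ribbon synapses.

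A member held between 276 and 8471 UMIs, with a median of 1259, against 1052 over all cells with at least 200 genes. Genes detected per member ranged from 254 to 3477. The whole-retina libraries gave 16 members in P14 NORM, 7, 21 and 14 in P14 OIR replicates 1, 2 and 3, 1 in P17 NORM, and 22 and 20 in P17 OIR replicates 1 and 2. The rod-depleted libraries gave 5 members in P14 NORM, 9 and 2 in P14 OIR replicates 1 and 2, 11 in P17 NORM and 1 in P17 OIR. No member shared its barcode with a cell of another library. The columns read as P14 NORM whole retina carry the replicate number 8 in place of 1, so that match is less sure than the others. Over all cells of that library Rpl3, Rps3a1 and Hspa8 were close to 0 (0.0735, 0.119 and 0.469 per 10000 UMIs) while the lowest other library had 2.33, 1.95 and 6.85. Xist, the RNA that coats the inactive X chromosome of female cells, was between 60.4 and 83.6 per 10000 in the members of P14 NORM whole retina, P17 NORM rod-depleted retina and P14 OIR whole-retina replicates 1 and 2. It was 0 in those of P14 OIR whole-retina replicate 3 and both P17 OIR whole-retina libraries. The labels do not give the sex of the pups.

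Levels are library means of the normalised value per 10000 UMIs, given as mean ± SD over the 6 libraries with at least 10 members. For comparison, 4945 rod bipolar cells were taken as cells with at least 3 of Prkca, Sebox, Trpm1, Grm6 and Isl1 and none of the 7 OFF markers, and 1025 ON cone bipolar cells as cells with at least 2 of Isl1, Trpm1 and Grm6 together with Scgn and without Prkca and Sebox. Because genes chose all 3 groups, levels between them are a description without a test. Counts of listed genes highest or lowest in OFF cells have no share over all genes beside them, since it was not computed. OFF means also rest on the fewest cells, so these counts are not read as traits of a list. The file writes symbols in capitals, and they are given here in the usual mouse form.

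The 7 markers that chose the cells were unevenly represented. Scgn, a calcium-binding protein of cone bipolar cells (chromosome 13, 23953456 to 23991214 in GRCm38), was found in 87.6% of members. Cdh8, a cadherin, was found in 76.7%, and Grik1, a kainate receptor subunit (chromosome 16, 87895900 to 88290265), in 65.1%. Tacr3, the neurokinin B receptor, was found in 47.3% of members. The homeobox factors Vsx1 and Lhx3 were found in 34.9% and 28.7%, and Neto1, an auxiliary subunit of kainate receptors, in 21.7%. The commonest combination was Scgn, Grik1 and Cdh8 alone, in 28 cells. Scgn, Cdh8 and Tacr3 alone came next with 10 cells, and 46 combinations occurred in all.

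Members just inside the threshold, with exactly 3 markers, numbered 78 and had a median of 1198.5 UMIs. Cells just outside it, with exactly 2 markers and no ON gene, numbered 279 with a median of 1119. The 51 members with 4 or more markers had a median of 1368 UMIs. Of 758 cells with at least 3 OFF markers, 629 were set aside because they carried an ON gene, and these had a median of 2064 UMIs. RNA of other cells, whether free or from doublets (2 cells under 1 barcode), could bear on both parts of the rule. Among 3604 Müller glia, which should lack these genes and had a median of 1318 UMIs, 28.6% carried at least 1 of the 4 ON genes, 20.3% carried Trpm1, 3.44% carried Scgn and 0.416% carried 3 or more OFF markers. Free RNA and doublets cannot be told apart in these shares, and their part in the make-up of the 129 members was not tested.

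Grik1 was at 13.2 ± 1.87 in OFF cone bipolar cells and ranged only from 11.5 to 16.5 over the 6 libraries, against 1.49 ± 0.389 in ON cone bipolar cells. Tacr3 was at 6.98 ± 2.61 against 0.232 ± 0.182, and Neto1 at 3.21 ± 2.08 against 0.215 ± 0.210. Lhx3 was at 3.34 ± 1.12 against 1.48 ± 0.316 and Cdh8 at 15.4 ± 5.97 against 4.52 ± 1.49. These 5 markers stood above the ON cone bipolar level in all 6 libraries, which follows in part from the rule, since each member had to hold at least 3 of the 7. Scgn (25.1 ± 7.92 against 23.5 ± 7.08) and Vsx1 (4.07 ± 3.01 against 4.81 ± 2.65) overlapped between OFF and ON cone bipolar cells. Scgn was required of the ON cone bipolar cells, and all 7 markers are at 0 in rod bipolar cells by construction.

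**Figure D1:**
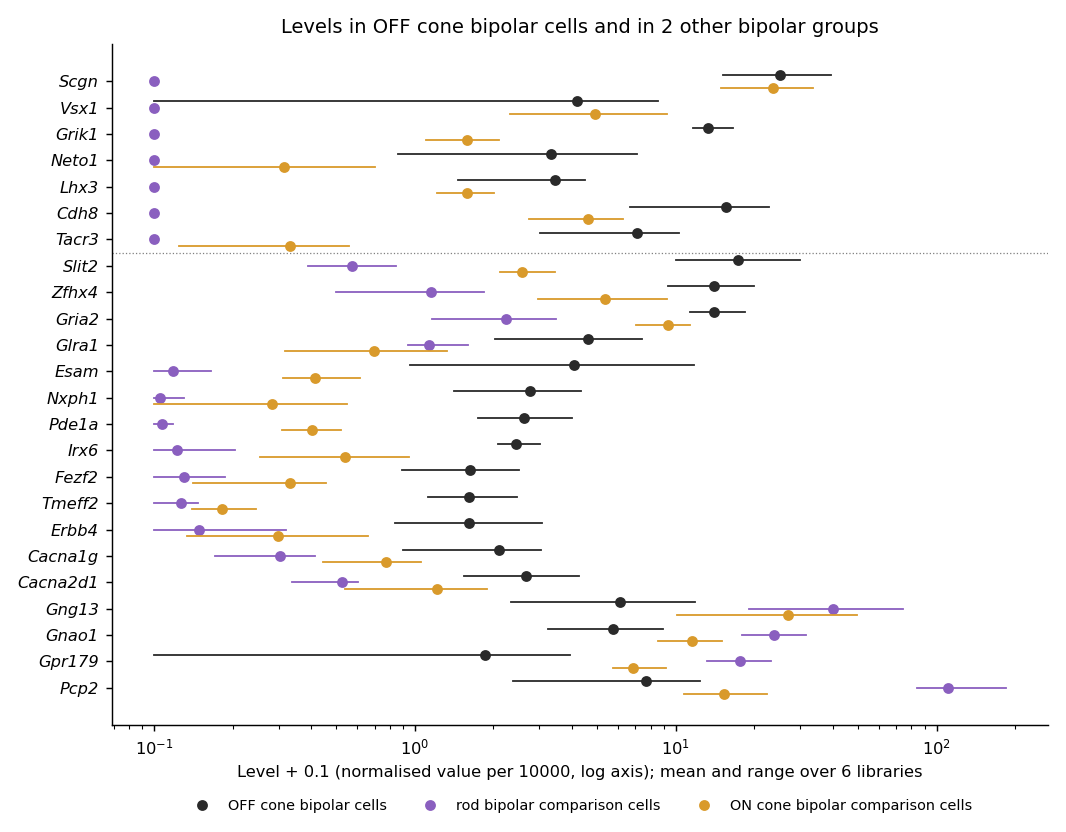
Levels of rule markers (above the dotted line) and of other genes in OFF cone, rod and ON cone bipolar cells. The x axis is the mean normalised value per 10000 UMIs plus 0.1 on a log axis, points are means and bars the range over 6 libraries. Slit2, Nxph1, Pde1a and Irx6 in OFF cells lie to the right of both other groups without overlap, and Gnao1 and Pcp2 lie lowest in OFF cells.

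Genes listed for OFF bipolar types outside the rule are described here too, again without the share over all genes. Of 18 genes listed for OFF bipolar types, 16 were higher in OFF cone bipolar cells than in both other groups, and none was lower than in both. Their summed level was 36.6 ± 7.63, against 20.7 in rod and 22.0 in ON cone bipolar cells. Irx6, a homeobox factor (chromosome 8, 92674288 to 92680956), was at 1.97 in P14 NORM whole retina, 2.55 in P17 NORM rod-depleted retina, 2.38 and 2.22 in P14 OIR whole retina, and 2.04 and 2.91 in P17 OIR whole retina. It was among the steadiest of the genes described, at 2.34 ± 0.351 with a UMI in 31 of 129 members, and was at 0.0219 in rod and 0.440 in ON cone bipolar cells. Fezf2, a zinc finger factor of forebrain and retina, was at 1.53 ± 0.584 against 0.0301 and 0.232. Erbb4, a neuregulin receptor, was at 1.51 ± 0.828 against 0.0490 and 0.199. Each was above both comparison groups in 6 of 6 libraries. The 2 exceptions were Cabp5, a calcium sensor (15.4 ± 4.44 against 16.5 in rod and 7.76 in ON cone bipolar cells), and Ptprz1, a receptor phosphatase (2.32 against 1.17 and 8.07).

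The 15 genes with the highest ratio to both comparison groups at a level of at least 1 per 10000 were Wls, Tmeff2, Large, Nxph1, Esam, Ifit2, Pde1a, 1500009L16Rik, Zdhhc13, Erbb4, Pcdh10, Slit2, Epha3, Fezf2 and Kcnip4. Slit2, a secreted guidance molecule (chromosome 5, 47983138 to 48307733), was the most widely detected of them, with a UMI in 76.0% of members. Its level was 13.1 in P14 NORM whole retina, 9.92 in P17 NORM rod-depleted retina, 29.8 and 22.4 in P14 OIR whole retina and 11.8 and 15.9 in P17 OIR whole retina. This is 17.2 ± 7.56 on average, against 0.471 ± 0.169 in rod and 2.48 ± 0.545 in ON cone bipolar cells, and the lowest OFF library lay above the highest library of either. Nxph1, a secreted ligand of neurexins, was at 2.65 ± 1.17 against 0.00498 and 0.182. Pde1a, a calmodulin-dependent phosphodiesterase, was at 2.51 ± 0.848 against 0.00745 and 0.304, and Tmeff2 was at 1.51 ± 0.466 against 0.0270 and 0.0825. Esam, a cell adhesion molecule also known from endothelium, ranged from 0.860 to 11.6 over libraries with a mean of 3.97 ± 4.01. Of 7 endothelial genes listed, Cldn5, Pecam1, Cdh5 and Kdr had no UMI in the members. The others had some, and the 7 genes summed to at most 0.677 per 10000 over the 6 libraries. In P14 OIR whole-retina replicate 1, which had under 10 members, the sum was 1.13. High ratios do not all rest on many cells: Wls was found in 10 members and at 0 in 1 of the 6 libraries, and Large was found in 6 members and at 0 in 2 libraries.

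Transcription factors shared by bipolar cells divided the 3 groups differently. Zfhx4, a zinc finger homeobox factor, was at 13.9 ± 4.80 in OFF cone bipolar cells, 1.05 in rod and 5.25 in ON cone bipolar cells, and was highest in OFF cells in 6 of 6 libraries. Lhx4, a LIM homeobox factor of cone bipolar cells, was at 6.87 ± 1.46 against 3.22 and 4.86. Prox1 was at 6.15 ± 3.63 against 14.2 and 11.3. Over the list of 18 such factors, 4 were highest and 10 lowest in OFF cone bipolar cells.

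Ionotropic glutamate receptor genes were higher in sum in OFF cone bipolar cells. Gria2, an AMPA receptor subunit (chromosome 3, 80681450 to 80802835), had a UMI in 77.5% of members. Its level was 12.3 in P14 NORM whole retina, 17.5 in P17 NORM rod-depleted retina, 18.4 and 13.0 in P14 OIR and 11.3 and 11.2 in P17 OIR whole retina. Each library lay above both comparison groups, which had 2.13 ± 0.748 (rod) and 9.21 ± 1.48 (ON cone). Gria4 was lower, at 1.53 ± 1.38 against 0.396 and 0.666. The 24 ionotropic receptor and auxiliary genes outside the rule summed to 21.4 ± 4.19 in OFF cells, 7.45 in rod and 15.3 in ON cone bipolar cells, with 11 highest and 7 lowest in OFF cells. Kainate subunits other than the rule's Grik1 contributed little, with Grik5 at 0.784, Grik2 at 0.375, and Grik3 and Grik4 without a UMI in any member.

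Genes of the ON pathway that the rule did not use were lower in OFF cells. Of 15 such genes, 12 were lower than in both comparison groups and 1 was higher, Lrit3, at only 0.158. Part of this follows from the choice of cells, since the comparison groups had to hold ON genes that members had to lack. The 15 also include Prkca and Sebox, which helped choose the rod bipolar cells and were barred from the ON cone bipolar cells. The sum was 83.3 ± 14.9 in OFF cells, against 501 ± 93.2 in rod and 153 ± 26.2 in ON cone bipolar cells. Gnao1, the G protein subunit coupled to the Grm6 receptor, was at 5.66 ± 1.96 against 23.8 and 11.4. Gng13, a G protein gamma subunit, was at 6.02 ± 3.55 against 39.9 and 26.9, and Gpr179, which anchors the cascade at the dendritic tip, was at 1.76 ± 1.49 against 17.5 and 6.75. Pcp2 was at 7.61 ± 4.30 against 110.6 in rod bipolar cells. The 6 rod bipolar markers, which also include Prkca and Sebox, summed to 10.2 in OFF cells, 157 in rod and 17.2 in ON cone bipolar cells. Traces of them were thus found in the members.

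Inhibitory receptors differed by subunit. Glra1, a glycine receptor subunit, ranged from 1.92 to 7.33 over libraries against means of 1.03 in rod and 0.593 in ON cone bipolar cells, and was highest in OFF cells in 6 of 6 libraries. Gabrr1, of the GABA-C receptor that marks rod bipolar terminals, was at 2.97 against 4.72 and 3.95. Over 21 GABA and glycine receptor genes, 11 were highest and 7 lowest in OFF cells.

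Among 31 voltage-gated channel genes, 17 were highest and 10 lowest in OFF cone bipolar cells. Cacna1g, a T-type calcium channel, ranged from 0.801 to 2.94 over libraries against means of 0.205 in rod and 0.675 in ON cone bipolar cells, highest in 6 of 6 libraries. The sodium channel Scn3a was at 1.27 ± 1.40 against 0.139 and 0.399, but was 0 in 1 library. Of 32 genes of the ribbon synapse and transmitter release, 9 were highest and 15 lowest, and their sum of 101 ± 4.69 was below the 124 of rod and 113 of ON cone bipolar cells. Calcium channel auxiliary subunits were divided: Cacna2d1 was at 2.56 ± 0.999 against 0.426 and 1.12, whereas Cacna2d3 was at 2.27 ± 1.75 against 14.6 and 4.26.

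Markers of other retinal cells were low in the members apart from photoreceptor genes. The 13 rod markers summed to between 15.5 and 70.3 per 10000 over libraries, highest in P17 OIR whole-retina replicate 2, with a mean of 35.3 that was below the 42.9 of rod and 48.5 of ON cone bipolar cells. The 8 cone markers summed to between 5.61 and 20.7, and the 10 Müller glia markers to between 4.07 and 8.66. Amacrine markers summed to at most 4.84 (Chat and Neurod6 at 0), horizontal cell markers to at most 9.01, and ganglion cell markers to at most 1.59 (Pou4f2, Slc17a6 and Isl2 at 0). Of the 10 microglia and macrophage markers, 9 had no UMI in any member. Beyond the markers of the rule, ON pathway genes were lower, and Gria2, Irx6 and Fezf2 higher, in the members than in the comparison groups. This is a description and no separate test of the OFF label. ON genes took part in choosing all 3 groups, and Fezf2 is among the 15 genes picked by their ratio.

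Within the 129 cells, some genes outside the rule were spread unevenly over the marker combinations. The pairs given were picked for large differences from many examined in these same cells. Other pairs were near even, as Zfhx4 in 28 of 45 Vsx1-positive and 51 of 84 Vsx1-negative members. Slit2 was found in 64 of 84 Grik1-positive and 34 of 45 Grik1-negative members. Irx6 was found in 31 of 99 Cdh8-positive members and in 0 of 30 Cdh8-negative ones, and Erbb4 in 18 of 99 and 0 of 30. Pcdh10 and Pcdh17, 2 protocadherins, showed the reverse, in 8 of 99 Cdh8-positive cells each but in 11 and 10 of 30 Cdh8-negative cells. The median depth of these sets was 1307 and 1078 UMIs, so the deeper set had fewer of the protocadherins.

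Nxph1 went with Lhx3, in 16 of 37 Lhx3-positive and 9 of 92 Lhx3-negative cells, and both genes were found together in 8 libraries. Syt2, a synaptotagmin, went with Vsx1 (11 of 45 against 2 of 84, together in 6 libraries), and Chrm2, a muscarinic receptor, with Neto1 (8 of 28 against 9 of 101, together in 5 libraries). Gsg1, a transmembrane protein, was found in 12 of 61 Tacr3-positive and 36 of 68 Tacr3-negative cells. It was also rarer in Neto1-positive cells (3 of 28 against 45 of 101) and more frequent in Cdh8-positive cells (43 of 99 against 5 of 30). Esam was found in 43 of 113 Scgn-positive cells and 0 of 16 Scgn-negative ones, whose median depths were 1295 and 851 UMIs.

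These shares come from cells pooled over libraries and carry no test. Relations among the rule's own markers are shaped by the need for at least 3 of them: Tacr3 was found in 40 of 99 Cdh8-positive and 21 of 30 Cdh8-negative members.

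**Figure D2:**
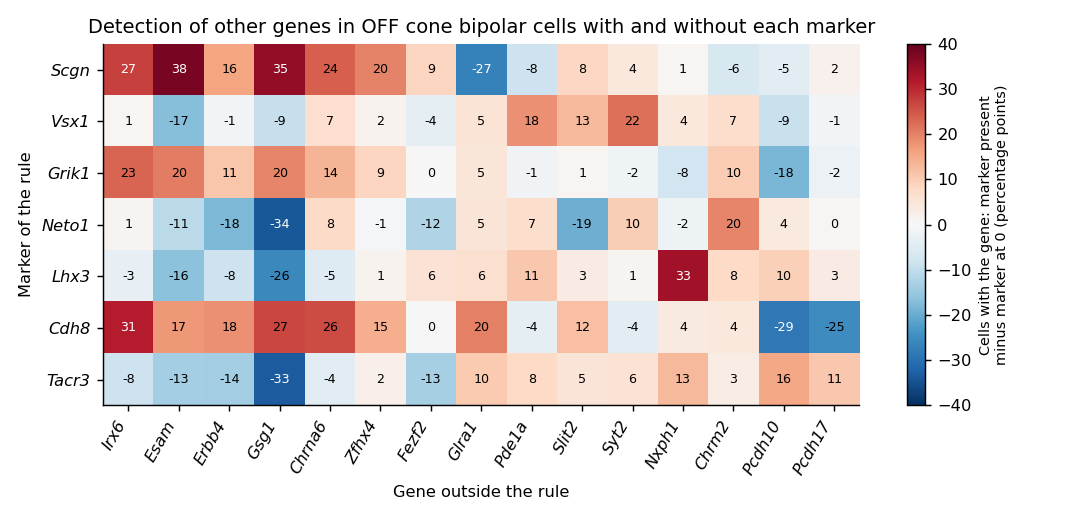
Difference, in percentage points, between the share of OFF cone bipolar cells with a gene (columns) among cells with a marker of the rule (rows) and among cells without it, pooled over 12 libraries. The columns are a selection of the genes examined. Red marks genes found more often with the marker, as Nxph1 with Lhx3 and Irx6 with Cdh8, and blue those found less often, as Gsg1 with Tacr3.

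The share of OFF cone bipolar cells among cells with at least 200 genes did not differ between OIR and NORM beyond the spread of libraries. In whole retina it was 0.657% in P14 NORM and 0.440%, 0.905% and 0.776% in the 3 P14 OIR libraries. At P17 it was 0.176% in NORM, from a single member, and 0.645% and 0.814% in OIR. In rod-depleted retina it was 0.249% in P14 NORM and 0.466% and 0.111% in P14 OIR, then 0.441% in P17 NORM and 0.0515% in P17 OIR. OIR and NORM libraries overlapped at P14 in both fractions, and at P17 their order was opposite in the 2 fractions.

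The mean was 0.526% ± 0.319 (SD, n = 8) in OIR and 0.381% ± 0.216 (SD, n = 4) in NORM. Within age and fraction the mean difference was 0.0635 percentage points (exact permutation test of labels within age and fraction, two-sided p = 0.708, adjusted 0.708 over 2 comparisons). Its sign was not stable. It was -0.100 without P17 NORM whole retina, the shallowest library, and -0.0281 with every cell thinned to 500 UMIs. Rod-depleted libraries had 0.264% ± 0.188 (SD, n = 5) and whole-retina libraries 0.630% ± 0.250 (SD, n = 7), a difference of -0.310 points within age and oxygen (exact permutation test, two-sided p = 0.108, adjusted 0.217). That difference passed 0.05 unadjusted under several alternatives, among them -0.425 with thinning to 500 UMIs (exact permutation p = 0.0167). It also did so as a share of members and comparison bipolar cells only, at -2.86 points (exact permutation p = 0.0167). Exact 95% intervals of single libraries were wide, from 0.00445% to 0.975% in P17 NORM whole retina, and cover counting error only.

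**Figure D3:**
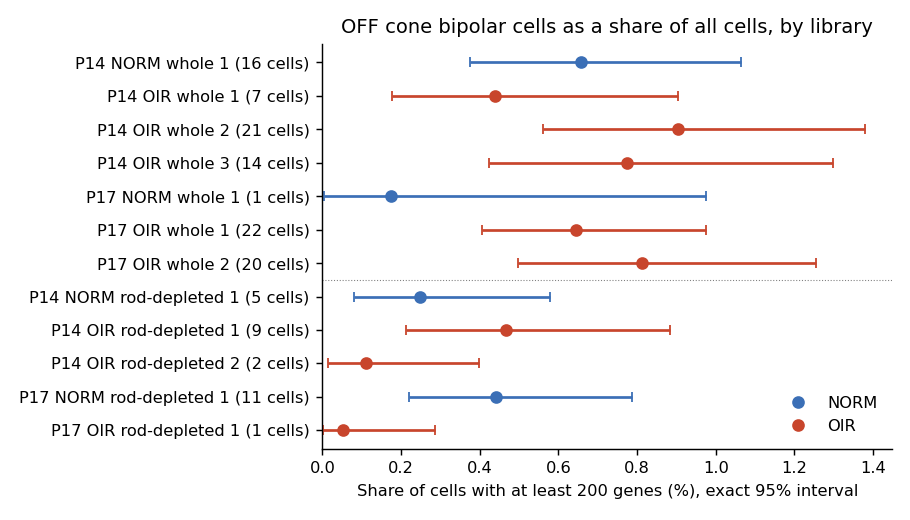
Share of OFF cone bipolar cells among cells with at least 200 genes in each of 12 libraries, with exact 95% intervals and the number of members. Whole-retina libraries stand above the dotted line and rod-depleted ones below it, and NORM (blue) and OIR (red) intervals overlap in each age and fraction.

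No gene passed the threshold between OIR and NORM in OFF cone bipolar cells: 0 of 6908 genes tested (0.0%), with limma and Benjamini-Hochberg adjustment at 0.05. At an unadjusted p under 0.05 there were 562 genes, 293 higher and 269 lower in OIR, and the smallest adjusted p was 0.594. The fit held oxygen, age and fraction, and since P17 NORM rod-depleted retina was the only rod-depleted library with 10 members, the oxygen term compares P14 NORM whole retina (16 cells) with P14 OIR whole-retina replicates 2 and 3 (21 and 14 cells). Those 2 OIR libraries carry another date in their names than P14 NORM whole retina, which shares its date with replicate 1 (7 cells, not in the fit), so date and oxygen cannot be told apart in this term. So few libraries leave the test little power, and a count of 0 does not show that genes were unchanged. With libraries of at least 5 members 1 of 7118 genes passed (0.014%), Xist, and with cells of at least 2 OFF markers 0 of 7782 (0.0%, with 600 at an unadjusted p under 0.05). Values below are therefore descriptions with their errors. Xist, as given above, was high in both NORM libraries of the main fit. It was 0 in P14 OIR whole-retina replicate 3 and both P17 OIR whole-retina libraries, and the part of this imbalance was not tested.

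Bnip3, a mitophagy receptor induced by hypoxia (chromosome 7, 138890836 to 138909519), had the largest difference among the glucose and hypoxia genes named. Its level was 0.624 in P14 NORM whole retina and 3.28 in P17 NORM rod-depleted retina, from only 2 and 3 UMIs. In OIR whole retina it was 4.97 and 10.2 at P14 and 2.62 and 3.52 at P17. By these means P14 OIR was above both NORM libraries, while P17 OIR overlapped them. From summed UMIs, the 95% interval for counting error in P14 NORM whole retina was 0.117 to 3.49 per 10000. That of P17 NORM rod-depleted retina was 0.585 to 8.29. In P14 OIR whole-retina replicates 2 and 3 the intervals began at 3.41 and 7.06. Only replicate 3 thus lay clear of P14 NORM whole retina, and neither lay clear of P17 NORM rod-depleted retina. The log2 difference was 3.15 ± 0.649 (SE, limma, unadjusted p = 0.00102, adjusted 0.594). In libraries left out for having under 10 members it was 1.35 in P14 NORM rod-depleted retina, against 10.3 and 14.8 in the 2 P14 OIR rod-depleted libraries and 9.77 in P14 OIR whole-retina replicate 1. The names of some libraries in the labels carry a date, and among those with the same date OIR was higher by 3.60 on the log2 scale in whole retina (16 NORM and 7 OIR cells) and by 3.27 in rod-depleted retina (5 and 2 cells). The 3.15 and the 3.60 both rest on the 2 UMIs of P14 NORM whole retina. With cells of at least 2 OFF markers the difference was 0.80 ± 0.449, and 0.23 ± 0.549 without P14 NORM whole retina.

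Pfkp, a phosphofructokinase of glycolysis (chromosome 13, 6579768 to 6648777), was at 6.23 and 5.69 in the same NORM libraries, at 24.1 and 16.9 in P14 OIR and at 10.7 and 5.81 in P17 OIR. The difference was 1.67 ± 0.496 (limma, unadjusted p = 0.00895, adjusted 0.594). P14 OIR stood well above NORM and 1 of the 2 P17 OIR libraries was at the NORM level. Between P14 libraries with the same date in their names it was 0.97 in whole retina (16 and 7 cells) and -0.92 in rod-depleted retina (5 and 2 cells). Pfkp passed the threshold when cells with at least 2 OFF markers were thinned to 500 UMIs, an alternative chosen after seeing the data, at 2.68 ± 0.511 (limma, adjusted p = 0.000552). Without thinning it was 1.38 ± 0.332 (adjusted p = 0.223), and in libraries with at least 5 of the 129 members it was 0.25 ± 0.481.

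Ldha, lactate dehydrogenase A, was at 5.71 and 7.40 in NORM, 8.80 and 15.7 in P14 OIR and 7.77 and 10.2 in P17 OIR, a difference of 1.02 ± 0.492 (limma, adjusted p = 0.595). All 4 OIR libraries were above both NORM libraries, as were those of 635 of 6908 genes (9.19%), while for 475 (6.88%) all 4 were below. Vegfa, the vascular growth factor, was at 2.28 and 3.64 in NORM, 1.77 and 1.57 in P14 OIR and 2.37 and 2.55 in P17 OIR, a difference of -0.41 ± 0.638. Its sign turned with at least 2 OFF markers, to 1.62 (limma, unadjusted p = 0.00568). Hk2, hexokinase 2, was found in only 10 members, with a difference of 1.42 ± 1.39. Slc2a1 (a glucose transporter), H2-K1 (major histocompatibility class I), Selenbp1 and Matk had no UMI in any of the 4 NORM libraries and were found in only 13, 11, 7 and 11 members in all, while 3 UMIs in P14 NORM whole retina would be 1.45 per 10000. Mt1 (metallothionein) had no UMI in the 2 NORM libraries of the fit but 2 UMIs, or 6.17 per 10000, in P14 NORM rod-depleted retina.

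Of 21 hypoxia and HIF target genes tested, 13 had a positive difference and none passed, with 2 higher at an unadjusted p under 0.05 and a median of 0.98 on the log2 scale. Of 22 glycolysis genes, 14 were positive and none passed, with 3 higher and 1 lower at an unadjusted p under 0.05 and a median of 0.75. Over all 6908 genes the median was -0.03 and 47.4% were positive. The 3 higher glycolysis genes were Pfkp, Pkm and Pgk1, and the lower one was Gapdh. The lists did not stand alone in this contrast. Immediate early and stress genes had a median of 0.73 with 12 of 16 positive and 2 higher at an unadjusted p under 0.05. Rod markers had a median of -1.03 with 4 of 12 positive, and nuclear respiratory chain genes a median of -0.30 with 13 of 40 positive and 5 lower. None of these genes passed, and the part of the rod markers in the other values was not tested.

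The 10 genes with the smallest p, none past the threshold, were Rpl3, Frmd3, Rps3a1, Hspa8, Bnip3, Upf3b, Psmc1, Zfhx3 and Safb2 (higher in OIR) and Stmn3 (lower). Rpl3 and Rps3a1, which encode ribosomal proteins, and Hspa8, a chaperone, were also near 0 over all cells of P14 NORM whole retina, as given above. Frmd3, a cytoskeletal adaptor, had 0 UMIs of 20724 in P14 NORM whole retina and 16 of 24628 and 7 of 17316 in the P14 OIR libraries. It had 3 of 10575 UMIs in P17 NORM rod-depleted retina and 12 of 51054 and 15 of 52254 in P17 OIR. Stmn3, a microtubule regulator, was at 10.6 and 6.75 in NORM, 1.63 and 1.55 in P14 OIR and 3.18 and 5.79 in P17 OIR, a difference of -2.59 ± 0.583 (limma, adjusted p = 0.594). Without P14 NORM whole retina, with at least 2 OFF markers, Rpl3, Frmd3, Hspa8, Upf3b, Psmc1 and Stmn3 took the opposite sign.

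**Figure D4:**
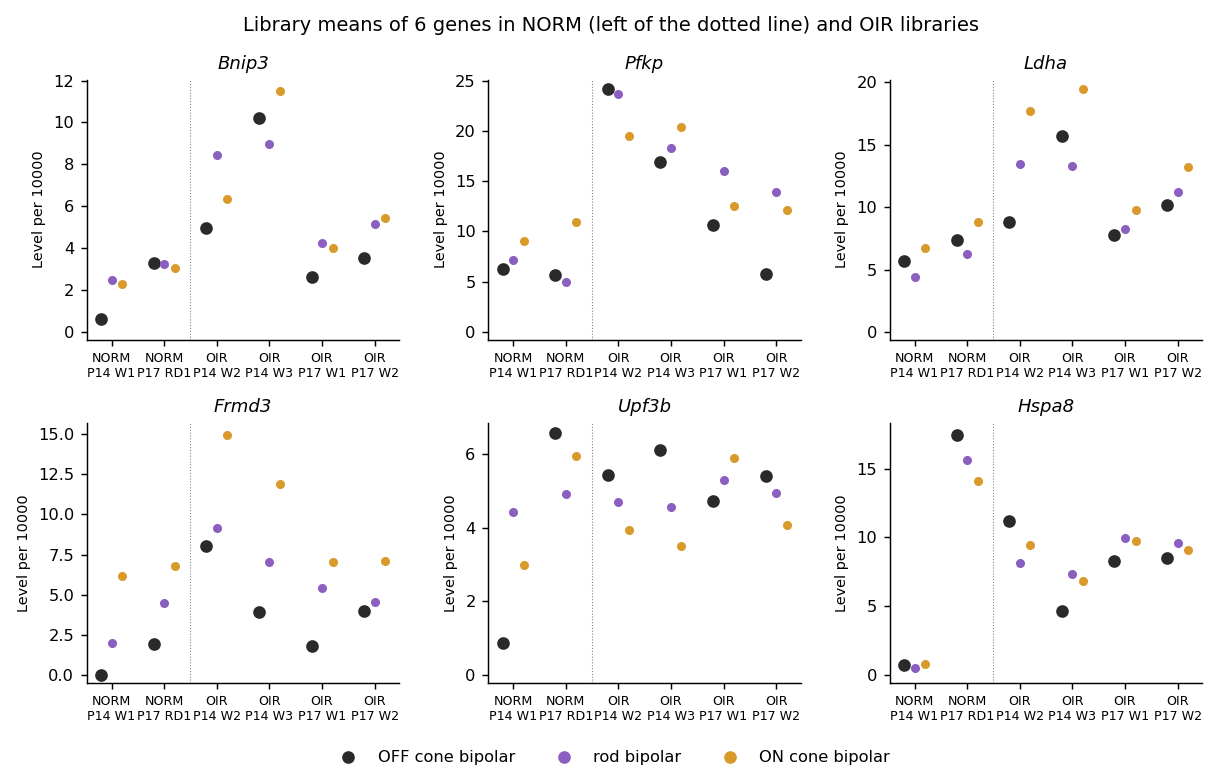
Library means per 10000 UMIs of 6 genes in OFF cone (black), rod (purple) and ON cone (orange) bipolar cells, with NORM libraries left and OIR libraries right of the dotted line (W whole retina, RD rod-depleted). Bnip3, Pfkp and Ldha in OFF cells are highest in a P14 OIR library, and Hspa8 is near 0 in P14 NORM whole retina in all 3 cell groups.

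The difference of the oxygen effect between OFF cells and the other bipolar cells was fitted over the same 6 libraries. With 0 of 8453 genes (0.0%) against rod bipolar cells and 0 of 8541 (0.0%) against ON cone bipolar cells, no difference of effects passed the threshold, while 706 and 717 genes had an unadjusted p under 0.05 (limma). Against ON cone bipolar cells, 436 of 8511 genes (5.12%) passed the threshold without P14 OIR whole-retina replicate 2. Without replicate 3, 457 of 8528 (5.36%) did, each fit with 1 residual degree of freedom. On their own the comparison groups were fitted over all 12 libraries, so those effects cannot be subtracted from the OFF values, and they had 31 of 7121 (0.435%) and 4 of 7538 (0.0531%) genes past it. Bnip3 was among them in both, at 1.36 ± 0.227 in rod (limma, adjusted p = 0.00769) and 1.55 ± 0.296 in ON cone bipolar cells (adjusted p = 0.0209). Over the 6 shared libraries the Bnip3 effect in OFF cells minus that in rod bipolar cells was 1.42 ± 0.614 and minus that in ON cone bipolar cells 1.34 ± 0.597 (adjusted p = 0.584 and 0.591). Pfkp was at 1.51 ± 0.166 in rod bipolar cells (limma, adjusted p = 0.000136), and the difference over the 6 shared libraries was 0.15 ± 0.431 (adjusted p = 0.932). Vegfa was at 1.20 ± 0.167 in rod bipolar cells over 12 libraries (adjusted p = 0.00186), and the difference over the 6 shared libraries was -1.73 ± 0.699 (adjusted p = 0.566).

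Whether the oxygen effect in OFF cells differed between P14 and P17 could be fitted only with more libraries. With libraries of at least 5 members 3 of 7118 genes passed (0.0421%, limma), the vesicle protein gene Vamp2 together with Ptms and Mycbp2, and all 3 had no UMI in P17 NORM rod-depleted retina. With cells of at least 2 OFF markers 2 of 7782 passed (0.0257%), mt-Co1 and Rps21.

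Between P17 and P14, 0 of 6908 genes (0.0%) passed the threshold in OFF cone bipolar cells, with 431 at an unadjusted p under 0.05 (291 higher and 140 lower at P17) and a smallest adjusted p of 0.677 (limma). The age term compares the 2 P17 OIR whole-retina libraries with P14 OIR replicates 2 and 3. These differ in depth too, with member medians of 2138 and 1812 UMIs at P17 and 839 and 1109.5 at P14, so age and depth cannot be told apart. Xist, as given above, also differed within these 4 libraries. It was the 1 gene of 7118 past the threshold (0.014%) with libraries of at least 5 members, and with cells of at least 2 OFF markers Xist and Gm4792 passed, 2 of 7782 (0.0257%).

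Tuba1a, an alpha tubulin of growing neurons (chromosome 15, 98949837 to 98953703), was at 8.18 and 7.86 at P14 and 20.7 and 19.9 at P17, a difference of 1.32 ± 0.302 (limma, adjusted p = 0.727). The ages did not overlap, which held for 1515 genes higher at P17 (21.9%) and 1066 lower (15.4%). Rod bipolar cells of the same libraries had 8.38 and 11.1 at P14 and 12.3 and 14.2 at P17, and the difference between the cell groups was not tested. Fam162a, a hypoxia-responsive mitochondrial protein, was at 5.08 and 5.15 at P14 and 0.998 and 0.870 at P17, a difference of -2.23 ± 0.501 (adjusted p = 0.727). Pcbp3, an RNA-binding protein, was at 1.55 and 0.975 at P14 and 7.62 and 6.98 at P17. Rogdi was at 1.57 and 0.391, then 4.97 and 7.10.

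Atp5k (0.260 and 0 at P14, 5.21 and 5.63 at P17) and Rps21 (0.596 and 1.40, then 10.8 and 8.46) had the smallest p. Atp5k is a subunit of ATP synthase and Rps21 a ribosomal protein. Both were also low over all cells of the 2 P14 libraries, at 1.88 and 1.67 for Atp5k and 1.30 and 1.47 for Rps21. The others of the 10 genes with the smallest p were Zfp365, Usmg5, Eef1g and Blcap, all with higher values at P17. Usmg5 (0.904 and 0.871) and Eef1g (1.59 and 1.02) were also lowest over all cells in these 2 P14 libraries.

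Hypoxia genes had a median log2 difference of -1.04 at P17 (7 of 21 positive, 2 lower at an unadjusted p under 0.05), against 0.16 over all genes, of which 55.9% were positive. Pdk1, which limits pyruvate entry into mitochondria, was at 1.77 and 2.19 at P14 and 0.204 and 0 at P17, and Cox4i2, a hypoxia-induced subunit of cytochrome oxidase, at 2.75 and 1.93, then 0.136 and 0.201. Nuclear genes of the respiratory chain had a median of 0.36 with 28 of 40 positive. Rod markers had a median of 0.65 with 10 of 12 positive in the same contrast, and their part in the other values was not tested. Slit2 and Zfhx4 were both lower at P17, by -0.91 ± 0.320 and -0.99 ± 0.304 (limma, adjusted p = 0.727 for both).

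**Figure D5:**
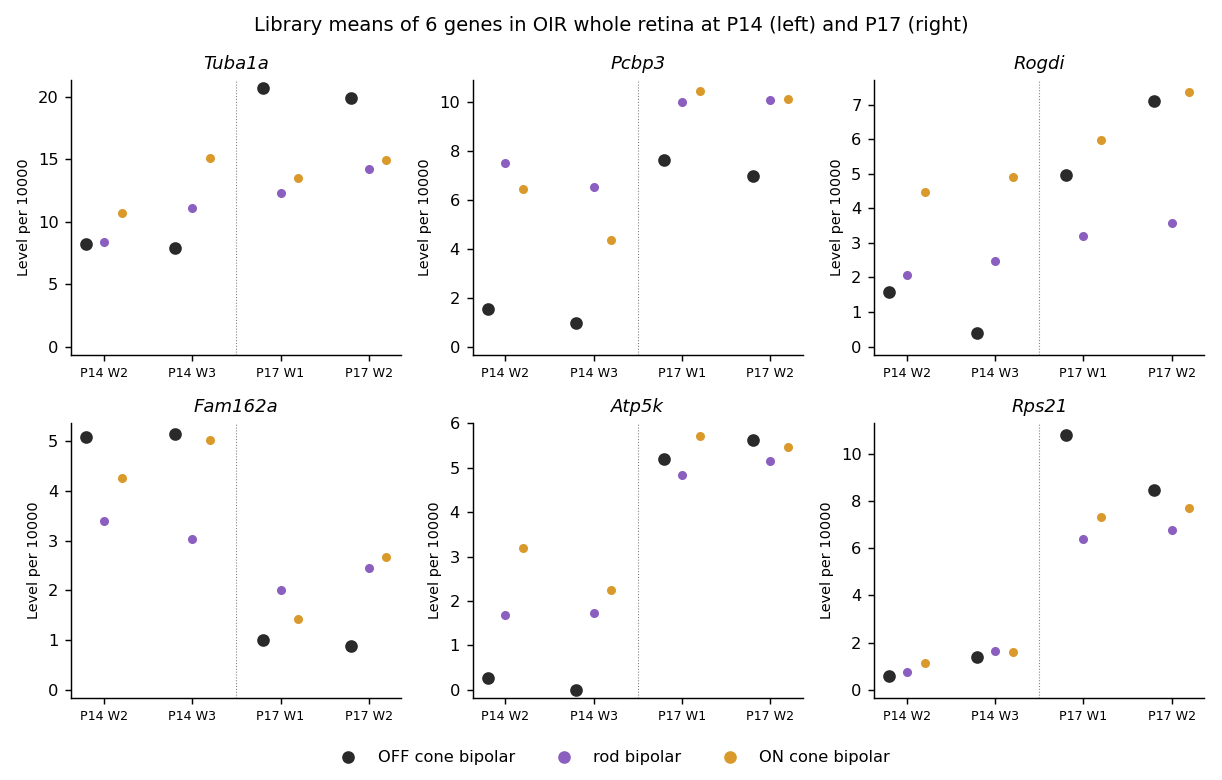
Library means per 10000 UMIs of 6 genes in OIR whole retina at P14 (left of the dotted line) and P17 (right) for OFF cone (black), rod (purple) and ON cone (orange) bipolar cells. Tuba1a in OFF cells is at 8.18 and 7.86 at P14 and 20.7 and 19.9 at P17, and Rps21 is low at P14 in all 3 groups.

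Between rod-depleted and whole retina, the main fit held P17 NORM (11 cells) as its only rod-depleted library. Its fraction term compares that library with P14 NORM whole retina, after the age difference seen in OIR, and has no replicate. The median difference over all genes was -0.46 (limma). With libraries of at least 5 members, 8 of 7118 genes passed (0.112%): 2 were higher, Malat1 and mt-Cytb, and 6 were lower in rod-depleted retina, among them Sag, Magi3, Rpgrip1 and 1700020I14Rik. With cells of at least 2 OFF markers, 27 of 7782 passed (0.347%), 8 higher and 19 lower. The lower genes included Sag, the arrestin of rods (-4.69 ± 0.526), and Gnat1, the rod transducin subunit (-3.75 ± 0.649). The higher genes included mt-Cytb and Zfhx4 (2.22).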

How the data were processed

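Single-cell Drop-seq expression was measured in 12 libraries of mouse retina. Per the submitters' processing notes, bcl2fastq and STAR 2.4.0 were used with mm10 (GRCm38). The deposited table of 21408 genes holds, on a natural log scale, 1 plus each UMI count per 10000 UMIs of its cell. This was tested on the file: undoing the log gave values that sum to 10000 per cell and came out as whole UMIs for 100% of values within 0.05. The authors' log values were turned back to UMIs per 10000 before averaging. A further 5799 columns in 7 sets matched no library and were not used. Library totals were 404572 to 7864609 UMIs over 932 to 3415 cells. No doublets were removed here; what was done before deposit is not stated. The members and the gene lists were chosen with earlier results of these data known.

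Library means went to log2 after adding 0.2 and into limma 3.58.1 under R 4.3.3 (additive oxygen, age and fraction, mean-variance trend, two-sided, Benjamini-Hochberg over all genes). Libraries with at least 10 members and genes averaging at least 0.2 and found in 3 or more libraries entered, which left 2 residual degrees of freedom. Fold changes on this scale understate low genes. Shares were compared by exact permutation within strata, where p cannot go below 0.0139 for oxygen and 0.00833 for fraction. Named genes were the 10 with the smallest p per comparison, fixed hypoxia genes, and the 15 with the highest ratio to the comparison cells, at least 1 per 10000. The fit was tested on simulated data, where it returned the direction and about the size of the changes but with 6 libraries called almost none of them. Gene positions came from GENCODE M21, which matched 20007 symbols. Alternatives changed the member rule, library minimum, thinning, pseudocount, filter, summing and single libraries. Python 3.11.15, numpy 2.4.6, scipy 1.17.1, pandas 2.3.3 and matplotlib 3.10.9 were used.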

Additional observations from a re-analysis of the deposited data

Results flagged for a closer look

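The difference in the OIR effect between P17 and P14 could not be fitted with libraries of at least 10 members. The only P17 NORM library was then also the only rod-depleted one, so this difference could not be told apart from the fraction. With libraries of at least 5 members it passed the threshold for 3 of 7118 genes (0.0421%). Vamp2, a synaptic vesicle protein, had an OIR effect that was 6.82 ± 1.31 log2 units higher at P17 than at P14 (limma, adjusted p = 0.0142). Ptms was at 7.21 ± 1.43 (adjusted p = 0.0142) and Mycbp2, a ubiquitin ligase of neurons, at 6.77 ± 1.45 (adjusted p = 0.0373). All 3 genes had no UMI in the 11 members of P17 NORM rod-depleted retina, the only P17 NORM library in that fit. In the members of P14 NORM whole retina the 3 genes were at 6.39, 5.00 and 2.83 per 10000. Leaving out 1 library at a time gave between 0 and 2 such genes, and the difference cannot be estimated without P17 NORM rod-depleted retina.

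With cells of at least 2 OFF markers, 2 of 7782 genes (0.0257%) passed for the same difference. The mitochondrial gene mt-Co1 was at -3.07 ± 0.511 (limma, adjusted p = 0.00181) and Rps21, a ribosomal protein that is low over all cells of P14 OIR whole-retina replicates 2 and 3, at 4.22 ± 0.835 (adjusted p = 0.0255).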

How the results depend on the processing

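The count of genes between OIR and NORM, 0 of 6908, became 2 with a mean of at least 1 per 10000 (Rpl3 and Frmd3), 1 with libraries of at least 5 members (Xist, lower in OIR), 2 with at least 2 OFF markers and thinning to 500 UMIs (Pfkp and Xist), and 17 with at least 2 OFF markers without P14 NORM whole retina. Leaving out 1 library gave 0 to 159 genes, with 159 without P14 OIR whole-retina replicate 2 and 4 without replicate 3, each with 1 residual degree of freedom. The count between ages, 0, became 2 with a mean of at least 1, 1 with libraries of at least 5 members, 38 with at least 20 (3 libraries), 2 with at least 2 OFF markers and 1 with thinning added, and ran from 0 to 105 leaving out 1 library, highest without P14 OIR whole-retina replicate 2. Between fractions it was 8 with libraries of at least 5 members and 27 with at least 2 OFF markers. The difference of effects against ON cone bipolar cells, 0, ran from 0 to 457 leaving out 1 library, with 457 without P14 OIR whole-retina replicate 3 and 436 without replicate 2. That between ages, 3 with libraries of at least 5 members (3 higher), was 0 to 2 leaving out 1 library. With a pseudocount of 1 it was also 3, but with 2 higher and 1 lower, so the genes were not all the same.

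The replicate block could not be added with libraries of at least 10 members, which left no residual degrees of freedom. With libraries of at least 5 members and the replicate block, 1 gene passed for oxygen and 1 for age. The numbers are shared only as labels.

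The share difference between OIR and NORM turned to -0.396 points with at least 2 OFF markers, -0.0281 with thinning and -0.0221 in cells with at least 500 genes, and ran from -0.100 to 0.215 leaving out 1 library. That between fractions passed 0.05 at -1.43 with at least 2 OFF markers, -0.425 with thinning, -0.535 in cells with at least 500 genes and -2.86 among bipolar cells, and ran from -0.502 to -0.187 leaving out 1 library.

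Over 32 results of named genes and 604 alternatives, 545 kept direction and side of the threshold, 39 newly passed it and 20 changed sign. With at least 2 OFF markers without P14 NORM whole retina the oxygen difference was -0.51 for Rpl3, -1.22 for Frmd3, -0.36 for Hspa8, -0.18 for Upf3b, -1.69 for Psmc1, 0.31 for Stmn3 and 2.34 for Vegfa. With at least 2 OFF markers it was -0.65 for Psmc1 and 1.62 for Vegfa, and with thinning added -1.48 and 1.29, where Eef1g was at -0.082 for age. Pdk1 was at -0.57 and Cox4i2 at -0.0656 with libraries of at least 5 members. Safb2 was at -0.75, Pdk1 at -0.70 and Cox4i2 at -0.61 with the replicate block added. Cox4i2 was at -0.14 from summed UMIs, -2.33 with thinning and -0.0368 in cells with at least 500 genes. Bnip3 (0.23 to 4.48), Pfkp (0.09 to 2.68) and Ldha (0.49 to 1.43) kept their sign in these refits, though Pfkp was at -0.92 between the P14 rod-depleted libraries with the same date. The causes were not tested. At least 20 members for oxygen, at least 4 OFF markers, rod-depleted libraries alone and oxygen without P14 NORM whole retina gave no fit. With 1 to 22 members per library, a gene at 1 per 10000 rests on a few UMIs.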
